A study of Mus musculus with 24 samples.

Results

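The change of gene expression between day 6 and day 2 of differentiation was followed in mouse muscle cells kept under ANGPTL4 protein. Of the 24 libraries of the series, 8 belong to this course, chosen by their labels: 4 from ANGPTL4-treated cells at day 6 and 4 from ANGPTL4-treated cells at day 2. All 24 were made from C2C12 cells, an established line of mouse myoblasts that exits the cell cycle and fuses into multinucleated myotubes once serum is lowered. Every group was grown in 10% fetal bovine serum and then differentiated in 2% horse serum. The ANGPTL4 course received recombinant mouse ANGPTL4 at 10 ng/mL, another received 100 µM linoleic acid (LA), a polyunsaturated fatty acid of the diet, conjugated to bovine serum albumin, and the last received the vehicle alone. Each of these courses was sampled at days 2 and 6, with 4 libraries a day. A single line in a dish has neither nerve nor vessels, and the labels do not say whether the 4 libraries of a group came from separate cultures, so p-values measure the spread between libraries, which may be technical.

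The ANGPTL4 protein is secreted and blocks lipoprotein lipase, the enzyme that frees fatty acids from circulating triglyceride, and its gene is a target of the fatty acid sensing PPAR receptors. Myoblasts that leave the cycle first switch on myogenin and the embryonic sarcomere genes, then fuse. Maturing myotubes replace embryonic and perinatal forms of contractile proteins with adult ones, assemble triads and Z-discs, and build the acetylcholine receptor and dystrophin complexes of the membrane.

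The libraries were made with a kit that reads the 3′ ends of transcripts, and the deposited values were raw counts per gene. Library totals ran from 6100684 to 9067864 counts at day 6 and from 13194847 to 20580188 at day 2 under ANGPTL4. The means, 7.658 M counts at day 6 and 16.65 M at day 2, differed by -8.988 M (day 6 minus day 2; exact 2-sided permutation p = 0.0286, the smallest that 4 against 4 libraries allow), so depth and day cannot be told apart, and genes of low level are measured less precisely at day 6. Day 6 replicate 1 stood apart from the other day 6 libraries along the second principal component of the 8 libraries (-31.21, against 8.188 to 9.932), and day 2 replicate 4 along the first (-33.25, against -26.25 to -25.45). Over all 24 libraries, LA day 2 replicate 3 lay at 19.31 on the second component, where the other LA day 2 libraries lay at -4.067 to -1.323. ANGPTL4 day 2 replicates 1 to 3 lay at 15.25 to 19.71 on the same component, and ANGPTL4 day 2 replicate 4 at 4.606. The cause of these positions was not tested. Levels are given as CPM, counts of a gene per fixed number of library counts, scaled with edgeR's TMM factors, in the order of replicates 1 to 4. Fold changes and adjusted p-values come from edgeR's quasi-likelihood test with Benjamini-Hochberg adjustment over 12994 genes, and a gene was called at an adjusted p under 0.05. In bulk libraries, fewer cells of a kind and less RNA per cell cannot be told apart.

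The cells carried the genes that define the line at both days. Myog, the transcription factor of early differentiation, had 784, 828, 778 and 787 CPM at day 6, against 1009.6, 917, 896 and 957 CPM at day 2. Des, the muscle intermediate filament, had 2500.3, 2473, 2448 and 2333 CPM at day 6, against 2079, 1967, 1893 and 1974 CPM at day 2. In the endothelial list 3 of 11 genes were tested and 2 of them rose, with summed levels of 10.02 to 11.38 CPM at day 6, against 7.562 to 9.555 CPM at day 2. In the macrophage list 3 of 10 were tested and 1 rose, with sums of 5.268 to 7.28 CPM at day 6, against 4.654 to 6.798 CPM at day 2. Cdh5, an endothelial cadherin, had 0 to 22 counts in a library, and Csf1r, a macrophage receptor, 0 to 7. Of the 12 adipocyte markers 5 were tested, of which 1 rose and 1 fell. Lpl fell, and Pnpla2 rose by 0.31 on the log2 scale. The sums of the list were 55.04 to 60.15 CPM at day 6, against 102.1 to 115.7 CPM at day 2. This fall lay in Lpl, whose levels are given below, and not in the list as a group. The part of these marker lists in the results was not tested.

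Between day 6 and day 2, 5480 of 12994 genes were called (42.2%), of which 2908 were higher at day 6 (22.4%) and 2572 lower (19.8%). The counts of list members that follow are to be read beside these shares of all genes. At least 2-fold changes were seen in 449 of the higher and 225 of the lower genes. The day 6 and day 2 libraries did not overlap for 2639 higher genes (20.3%) and 2376 lower genes (18.3%). The share of calls that were higher was 53.07%, against 38.34% when only library totals set the scale and 51.82% with DESeq2's size factors. The median log2 fold change of all genes was -0.0031. Genes of the sarcomere, the triad, the Z-disc and glycolysis were among those that rose, and genes of DNA replication, mitosis, amino acid synthesis and the inhibitors of myogenic transcription among those that fell.

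**Figure D1:**
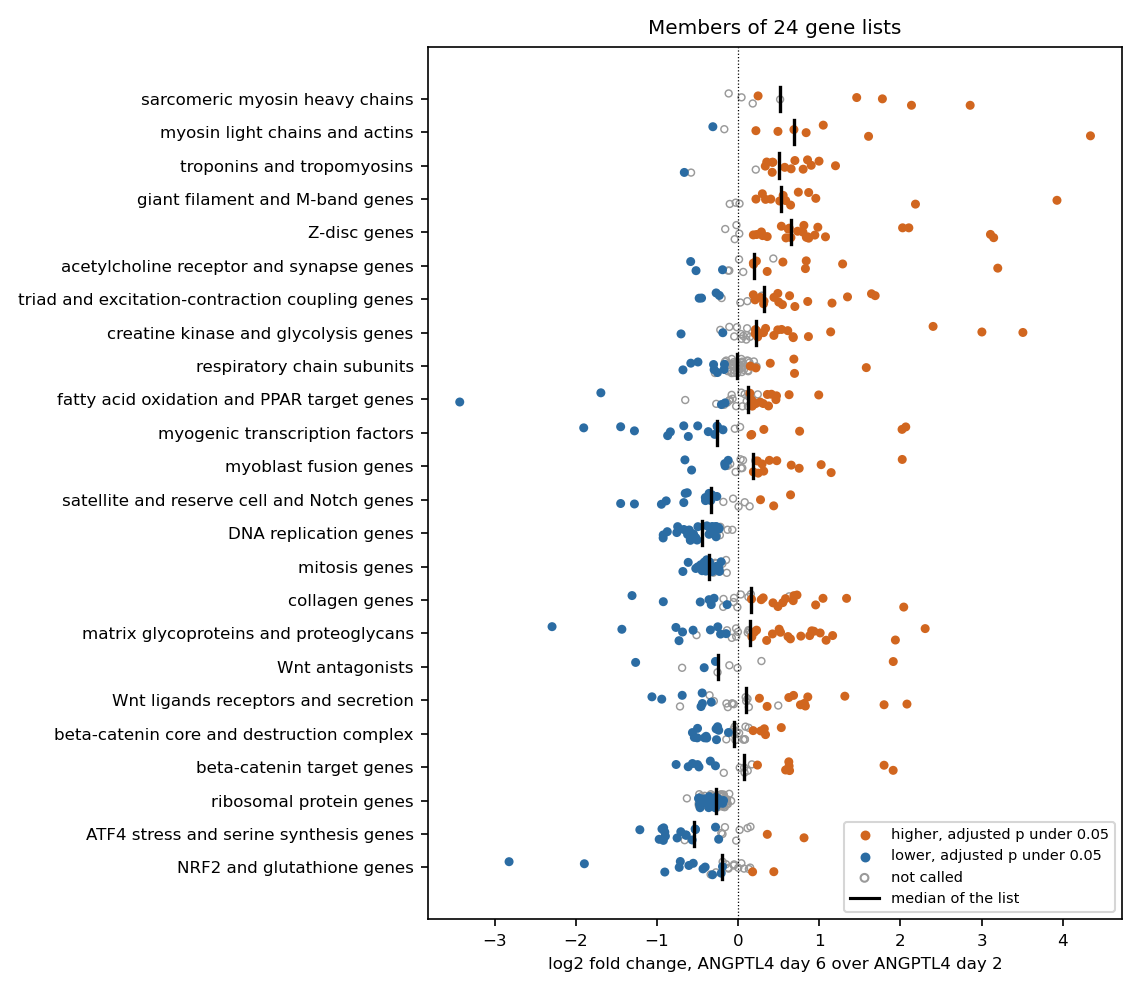
Log2 fold change of ANGPTL4 day 6 over day 2 for every tested member of 24 gene lists; filled points were called, open points were not, and the bar is the list's median. The medians of the contractile lists lie between 0.50 and 0.69, and those of the replication and mitosis lists at -0.44 and -0.36.

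Described here are 9 of the 10 genes with the largest increase, by a rule that asked for at least 5 CPM and no overlap between the days and left out provisional Gm and Rik names. Most of the 9 were genes of adult muscle structure. Myl2, the regulatory light chain of slow and cardiac muscle, had 23.8, 25.1, 24.1 and 22.96 CPM at day 6, against 1.46, 1.01, 1.32 and 0.739 CPM at day 2 (log2 fold change 4.34, SE 0.15, adjusted p = 1.37e-20). Mybpc2, the fast form of myosin binding protein C, had 24.6, 25.9, 28.2 and 29.8 CPM at day 6, against 1.94, 1.76, 1.75 and 1.63 CPM at day 2 (log2 fold change 3.93, SE 0.14, adjusted p = 1.37e-20). Dmd, which encodes dystrophin, the link between the cytoskeleton and the membrane complex, had 39.3, 38.4, 45.2 and 40.1 CPM at day 6, against 2.38, 2.64, 4.02 and 1.99 CPM at day 2 (log2 fold change 3.86, SE 0.26, adjusted p = 3.71e-10). In all of these the 4 day 6 libraries lay above all 4 day 2 libraries. Cmya5, a costamere and Z-disc protein, changed by 4.14, and Ppp1r3a, a subunit that brings protein phosphatase 1 to glycogen, by 3.27. Chrne (3.20) and Myot (3.15), along with Col23a1, a transmembrane collagen (4.21), and Fxyd6, a sodium pump regulator (4.06), were the others.

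For 8 of these 9 genes a promoter was found by symbol in the RefSeq table of build GRCm38.p6, which gives 250 bases before and 50 after the gene's start. Those of Mybpc2, Ppp1r3a and Chrne are shown because these genes had low levels at day 2, and that of Xirp2, an actin binding Z-disc protein, because its change was close to that of Chrne and it carries a MEF2 motif. Capitals mark 2 motifs of muscle regulators: the 6 letters CANNTG, the E-box that the MYOD family binds, and the MEF2 consensus. The sequences are written 5′ to 3′ on the strand of the gene, at chr7:44524620-44524919 (minus strand), chr6:14755225-14755524 (minus), chr11:70619145-70619444 (minus) and chr2:67445752-67446051 (plus).
Mybpc2: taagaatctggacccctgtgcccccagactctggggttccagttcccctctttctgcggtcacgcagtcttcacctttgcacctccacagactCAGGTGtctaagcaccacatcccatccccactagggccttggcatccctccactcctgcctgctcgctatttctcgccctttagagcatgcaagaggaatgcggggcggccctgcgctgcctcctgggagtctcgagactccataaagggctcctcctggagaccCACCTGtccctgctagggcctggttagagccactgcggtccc
Ppp1r3a: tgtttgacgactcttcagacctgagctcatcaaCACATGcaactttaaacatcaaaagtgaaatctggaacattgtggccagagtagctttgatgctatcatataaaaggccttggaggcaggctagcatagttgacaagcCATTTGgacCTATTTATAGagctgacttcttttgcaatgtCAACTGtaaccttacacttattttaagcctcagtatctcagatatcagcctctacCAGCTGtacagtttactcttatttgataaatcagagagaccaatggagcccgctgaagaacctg
Chrne: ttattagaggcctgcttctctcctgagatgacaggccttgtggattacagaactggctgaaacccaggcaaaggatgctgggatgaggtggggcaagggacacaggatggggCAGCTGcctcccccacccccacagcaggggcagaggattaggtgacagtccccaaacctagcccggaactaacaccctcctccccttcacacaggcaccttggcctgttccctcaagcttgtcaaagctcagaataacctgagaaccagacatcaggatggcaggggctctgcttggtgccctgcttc
Xirp2: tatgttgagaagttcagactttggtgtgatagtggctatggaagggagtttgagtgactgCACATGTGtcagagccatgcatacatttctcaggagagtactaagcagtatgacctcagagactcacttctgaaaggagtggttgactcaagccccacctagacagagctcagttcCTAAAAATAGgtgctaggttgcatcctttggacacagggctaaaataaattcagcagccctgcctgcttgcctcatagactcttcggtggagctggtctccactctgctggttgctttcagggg
The promoter of Mybpc2 held 2 E-boxes and that of Ppp1r3a 4, of which 1 was CAGCTG, beside 1 MEF2 match. The Chrne promoter held 1 E-box, of the form CAGCTG, and the Xirp2 promoter 2 that overlap each other, with 1 MEF2 match.

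The same motifs were counted on both strands in the first listed promoter of each tested gene. CANNTG and its form CAGCTG read the same on both strands, and every CAGCTG is also a CANNTG. A MEF2 match was found in 10 of the 48 contractile list members that rose and had a promoter entry (20.8%), in 25 of 336 genes that rose at least 2-fold (7.44%), in 1 of 164 that fell at least 2-fold (0.61%) and in 139 of all 10289 tested genes with an entry (1.35%). CAGCTG was found in 43.8% of the contractile members that rose, in 22.9% of the genes that rose at least 2-fold, in 18.9% of those that fell at least 2-fold and in 15.4% of all tested genes. CANNTG was found in 85.4%, 73.5%, 65.2% and 62.9% of the same sets, in that order. Over all 32851 promoters of the table the shares were 1.86% for the MEF2 consensus, 16.3% for CAGCTG and 72.3% for CANNTG. A match describes the letters of this window and does not show that a factor is bound.

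The myosin heavy chains changed by isoform. Myh2, the fast IIA chain, had 118, 132, 125 and 106 CPM at day 6, against 15.5, 17.5, 17.7 and 15.6 CPM at day 2 (log2 fold change 2.86, SE 0.12, adjusted p = 2.84e-14). Myh4, the fast IIB chain, had 888, 887, 784 and 824 CPM at day 6, against 162, 229.8, 219.6 and 158 CPM at day 2 (log2 fold change 2.14, SE 0.11, adjusted p = 3.67e-13). Myh1, the fast IIX chain, had 2620.1, 2706, 2516 and 2411 CPM at day 6, against 712, 827, 835 and 616 CPM at day 2 (log2 fold change 1.78, SE 0.079, adjusted p = 2.02e-16). These adult fast chains rose with no overlap between the days. Myh8, the perinatal chain, had 790.3, 891, 729 and 680.3 CPM at day 6, against 245, 325, 330.4 and 221 CPM at day 2 (log2 fold change 1.46, SE 0.13, adjusted p = 2.09e-08). Myh3, the embryonic chain, did not pass the test, with 4629, 4596, 4385 and 4306 CPM at day 6, against 5244, 5141, 4960.5 and 4073 CPM at day 2 (log2 fold change -0.12, SE 0.061, adjusted p = 0.126), and its libraries overlapped. It was called lower without day 2 replicate 4 (-0.21, adjusted p = 0.00272), with library totals alone (-0.18, adjusted p = 0.012) and with the GC and length trend of each library removed (-0.14, adjusted p = 0.0468). Myh7, the slow chain, was higher by 0.25 (adjusted p = 0.00844) and did not pass without day 2 replicate 4, its lowest library (0.17, adjusted p = 0.0701). Of the whole list 5 of 9 tested members rose and 0 fell, with a median log2 fold change of 0.52, which became 0.23 without day 6 replicate 1 and 1.24 with counts thinned to the smallest library total.

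Light chains, actins and the thin filament followed. Among light chains and actins 7 of 9 tested members rose and 1 fell, with a median log2 fold change of 0.69. Myl1, the fast essential light chain, averaged 1489.7 ± 31.6 CPM at day 6 and 719.99 ± 43.1 CPM at day 2 (SD, n = 4 each; log2 fold change 1.05), Mylpf, the fast regulatory chain, changed by 0.69, Myl4, the embryonic and atrial chain, by 0.84, and Mylk2, the kinase of the skeletal regulatory chain, by 1.61. The actins went separate ways. Acta1, the skeletal actin, had 3679.6, 3762, 3778 and 3713 CPM at day 6, against 2797, 2649, 2581 and 2600.5 CPM at day 2 (log2 fold change 0.49, SE 0.051, adjusted p = 2.04e-09). Actc1, the cardiac actin that skeletal muscle uses while it forms, had 1132, 1198, 1112 and 1169.6 CPM at day 6, against 1503, 1428, 1378 and 1413 CPM at day 2 (log2 fold change -0.31, SE 0.055, adjusted p = 2.66e-05). Among troponins and tropomyosins 13 of 16 tested members rose and 1 fell, with a median log2 fold change of 0.50. Tnnt1, the slow troponin T, changed by 1.00, Tnnt3, the fast one, by 0.80, Tnni2, the fast troponin I, by 0.90, Tnni1, the slow one, by 0.43, and the cardiac and embryonic Tnnt2 by 0.35. Lmod2, a leiomodin that sets thin filament length, averaged 219 ± 15.5 CPM at day 6 and 95.001 ± 11.8 CPM at day 2 (log2 fold change 1.20).

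Giant filament and Z-disc genes rose in most members. In the giant filament and M-band list 13 of 16 tested members rose and 0 fell, with a median log2 fold change of 0.53. Mybpc1, the slow myosin binding protein C, had 245, 283, 294 and 244 CPM at day 6, against 51.9, 71.02, 62.9 and 48.4 CPM at day 2 (log2 fold change 2.19, SE 0.096, adjusted p = 8.66e-15), and Neb, the nebulin ruler of the thin filament, had 3632, 3332, 2964 and 3007 CPM at day 6, against 2144, 2285, 2112 and 1722 CPM at day 2 (log2 fold change 0.65, SE 0.097, adjusted p = 9.66e-06). Myom2, the adult M-band protein, changed by 0.87. Ttn, which encodes titin, the spring of the sarcomere, had 17282, 9908, 10044 and 9786 CPM at day 6, against 7115, 7774, 7684 and 8735 CPM at day 2 (log2 fold change 0.59, SE 0.22, adjusted p = 0.0405). Day 6 replicate 1 was the highest, and without it the change did not pass (0.34, adjusted p = 0.205). It did not pass without any 1 of the 4 day 2 libraries either, with log2 fold changes of 0.53 to 0.63 and adjusted p = 0.0521 to 0.0935. In day 6 replicate 1 the list took 2.48% of all counts, against 1.71% to 1.76% in the other day 6 libraries and 1.24% to 1.37% at day 2. In the Z-disc list 23 of 27 tested members rose and 0 fell, with a median log2 fold change of 0.65. Myot, the Z-disc protein myotilin, had 57.3, 58.3, 63.8 and 50.9 CPM at day 6, against 6.50, 6.97, 6.82 and 5.47 CPM at day 2 (log2 fold change 3.15, SE 0.10, adjusted p = 2.37e-21), Xirp2 had 41.6, 46.8, 48.5 and 52.6 CPM at day 6, against 4.27, 8.12, 5.24 and 4.73 CPM at day 2 (log2 fold change 3.11, SE 0.30, adjusted p = 8.18e-08), Tcap, the titin cap, changed by 2.03, and Actn2, the alpha-actinin of the Z-disc, by 0.95. Days 6 and 2 did not overlap for Myot and Xirp2.

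**Figure D2:**
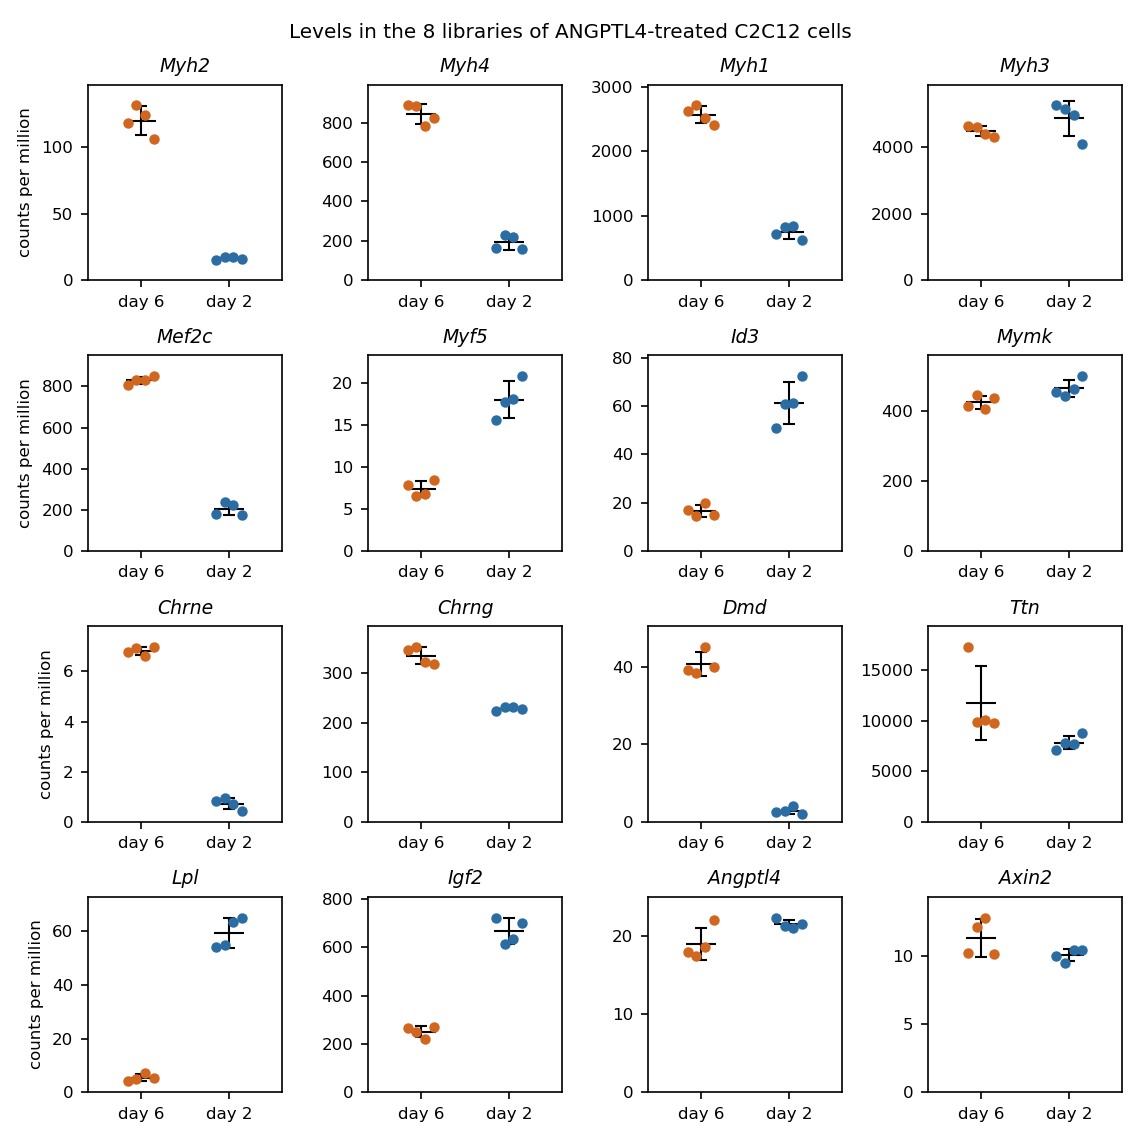
CPM of 16 genes in the 8 ANGPTL4 libraries, with the mean and SD of each day (n = 4). The adult myosin genes, Mef2c, Chrne and Dmd lie higher at day 6, Myf5, Id3, Lpl and Igf2 lower, and Myh3, Mymk, Angptl4 and Axin2 did not pass the test; the highest Ttn point is day 6 replicate 1.

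The transcription factors of myogenesis were lower more often than higher, and the members differed by stage. Of that list 6 of 21 tested members rose and 13 fell, with a median log2 fold change of -0.26. Myf5, a determination factor of the proliferating myoblast, had 7.82, 6.54, 6.74 and 8.44 CPM at day 6, against 15.6, 17.7, 18.1 and 20.8 CPM at day 2 (log2 fold change -1.28, SE 0.12, adjusted p = 1.23e-10). Myod1, the factor that defines the line's fate, averaged 131 ± 3.44 CPM at day 6 and 186 ± 4.999 CPM at day 2 (SD, n = 4 each; log2 fold change -0.50, adjusted p = 4.86e-09), and Myog changed by -0.25 (adjusted p = 0.00198). Mef2c, a partner of these factors in late differentiation, had 805, 831, 833 and 849.8 CPM at day 6, against 179, 239, 225 and 175 CPM at day 2 (log2 fold change 2.02, SE 0.075, adjusted p = 1.71e-18), and Myf6, the factor of mature myofibres, had 3.74, 5.23, 3.77 and 4.50 CPM at day 6, against 0.970, 0.879, 1.22 and 1.03 CPM at day 2 (log2 fold change 2.07, SE 0.22, adjusted p = 3.02e-09). Mef2a went the other way, by -0.29. Inhibitors of the MYOD family fell. Id3 had 16.8, 14.4, 19.7 and 14.7 CPM at day 6, against 50.8, 60.7, 61.2 and 72.4 CPM at day 2 (log2 fold change -1.90, SE 0.17, adjusted p = 1.55e-08), and Id1 and Id2 changed by -0.83 and -0.87. Srf, the serum response factor that drives actin genes, changed by -0.37.

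Fusion genes were mixed and the fusogens themselves did not pass. In the fusion list 12 of 25 tested members rose and 5 fell, with a median log2 fold change of 0.19. Mymk, which encodes myomaker, had 412, 443, 405 and 435 CPM at day 6, against 452, 441, 462 and 498 CPM at day 2 (log2 fold change -0.13, SE 0.069, adjusted p = 0.136), and Mymx, its partner myomixer, had 48.6, 52.4, 47.9 and 44.8 CPM at day 6, against 45.4, 48.1, 47.6 and 57.04 CPM at day 2 (log2 fold change -0.031, SE 0.074, adjusted p = 0.772). Both genes overlapped between the days. Cdh15, the cadherin of myoblasts, changed by -0.16, while Cav3, the muscle caveolin, rose by 1.15 and Tmem182, a muscle membrane protein, by 0.75.

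Genes of satellite cells, the reserve stem cells of muscle, and of the Notch pathway that keeps them undifferentiated were mostly lower. Of this list 3 of 21 tested members rose and 13 fell, with a median log2 fold change of -0.34. Pax7, the satellite cell factor, had 19.9, 19.3, 20.6 and 16.7 CPM at day 6, against 35.7, 37.3, 34.4 and 39.5 CPM at day 2 (log2 fold change -0.94, SE 0.088, adjusted p = 1.47e-10). Among Notch genes, the receptors Notch1 and Notch3 changed by -0.67 and -0.63, and their transcriptional targets Hey1 and Heyl by -1.45 and -0.65.

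Transcripts of the acetylcholine receptor subunits changed unequally. Chrne, the subunit of the adult receptor, had 6.80, 6.93, 6.61 and 6.98 CPM at day 6, against 0.825, 0.947, 0.687 and 0.443 CPM at day 2 (log2 fold change 3.20, SE 0.31, adjusted p = 1.21e-09). Chrng, the fetal subunit that it replaces at the nerve ending, had 346, 353, 322 and 319 CPM at day 6, against 224, 231, 231 and 227 CPM at day 2 (log2 fold change 0.55, SE 0.052, adjusted p = 2.11e-10). Both rose with no overlap between the days, and Chrng lay far above Chrne in every library. Chrnd changed by 0.36, while Chrna1 (0.063, adjusted p = 0.24) and Chrnb1 (-0.11, adjusted p = 0.0799) did not pass. Chrnb1 was called lower without day 2 replicate 4 (-0.14, adjusted p = 0.0297) or day 6 replicate 1 (-0.15, adjusted p = 0.0212). Rapsn and Dok7, which anchor and cluster the receptor, fell by 0.58 and 0.52, and Ache, the synaptic esterase, rose by 1.29. In the whole synapse list 9 of 17 tested members rose and 3 fell, with a median log2 fold change of 0.19.

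Genes of excitation and calcium handling were mostly higher. In the triad list 16 of 24 tested members rose and 4 fell, with a median log2 fold change of 0.32. Ryr1, the calcium release channel, had 800.2, 789.7, 762 and 749 CPM at day 6, against 467, 542, 534 and 455 CPM at day 2 (log2 fold change 0.63, SE 0.056, adjusted p = 4.34e-11), and Cacna1s, the voltage sensor that opens it, changed by 0.49. Trdn, the triadin that ties them to the store, rose by 1.35 and Mss51, a skeletal muscle mitochondrial protein, by 1.64, while Stac3, an adaptor of the voltage sensor, changed by -0.48. In the list of calcium uptake and buffering 8 of 13 tested members rose and 1 fell, with a median log2 fold change of 0.40. Casq1, the calcium buffer of the fast fibre, had 95.7, 100.4, 101 and 101 CPM at day 6, against 28.8, 24.4, 20.1 and 22.3 CPM at day 2 (log2 fold change 2.05, SE 0.11, adjusted p = 1.20e-13). The pumps Atp2a1 and Atp2a2 changed by 0.38 and 0.71, and Slc8a3, a sodium and calcium exchanger, rose by 2.74. In the dystrophin complex list 10 of 20 tested members rose and 3 fell, with a median log2 fold change of 0.15, led by Dmd and by Nos1, the nitric oxide synthase that docks on it (1.27). Sgcd, a sarcoglycan, rose by 0.90.

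Genes of rapid energy supply were higher more often than lower. In the creatine kinase and glycolysis list 17 of 30 tested members rose and 2 fell, with a median log2 fold change of 0.22. Ckmt2, the mitochondrial creatine kinase of muscle, had 4.42, 6.54, 7.42 and 7.88 CPM at day 6, against 0.922, 1.01, 0.740 and 0.591 CPM at day 2 (log2 fold change 3.00, SE 0.22, adjusted p = 5.06e-13). Pfkm, the muscle phosphofructokinase, had 582, 592, 589 and 564 CPM at day 6, against 263, 278, 265 and 249 CPM at day 2 (log2 fold change 1.14, SE 0.069, adjusted p = 2.34e-14). Pygm, the muscle glycogen phosphorylase, changed by 0.68, Eno3, the muscle enolase, by 0.49, and Ampd1, the muscle AMP deaminase, by 2.402. Ckb, the brain-type creatine kinase of the myoblast, changed by -0.70, while the muscle type, Ckm, did not pass (0.11, adjusted p = 0.455).

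Respiratory chain subunits were called in both directions. Of 56 tested, 6 rose and 8 fell, with a median log2 fold change of -0.013, and with library totals alone 4 rose and 14 fell. An isoform pair of cytochrome oxidase moved in opposite directions, since Cox6a2, the muscle form of subunit 6A, rose by 0.70 and Cox6a1, the form of other tissues, fell by 0.58. Cox8a changed by -0.68 and Cyc1, cytochrome c1, by -0.30. In the list of the citrate cycle and mitochondrial biogenesis 8 of 30 tested members rose and 4 fell, with a median log2 fold change of 0.033. Over all genes 22.4% were called higher and 19.8% lower. Mb, the oxygen store myoglobin, had 526, 567, 517 and 509.7 CPM at day 6, against 247, 207, 204 and 203 CPM at day 2 (log2 fold change 1.30, SE 0.072, adjusted p = 6.48e-15), and Idh2, the mitochondrial NADP isocitrate dehydrogenase, had 66.1, 71.3, 59.6 and 63.03 CPM at day 6, against 123, 107, 107 and 112 CPM at day 2 (log2 fold change -0.79, SE 0.057, adjusted p = 4.85e-13).

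The largest decrease, among genes that met the same rule, was that of a lipid gene. Lpl, the lipase that ANGPTL4 inhibits, had 4.42, 4.97, 7.28 and 5.18 CPM at day 6, against 54.03, 54.9, 63.5 and 64.9 CPM at day 2 (log2 fold change -3.43, SE 0.25, adjusted p = 1.34e-09), so that all 4 day 6 libraries lay below all 4 day 2 libraries. The gene Angptl4 itself had 18.01, 17.5, 18.6 and 22.1 CPM at day 6, against 22.4, 21.3, 21.05 and 21.6 CPM at day 2 (log2 fold change -0.17, SE 0.078, adjusted p = 0.0738) and did not pass, though it was called lower without day 6 replicate 4 (-0.26, adjusted p = 0.0121) and with library totals alone (-0.24, adjusted p = 0.0105). The PPAR targets Pdk4, which shuts glucose carbon out of the mitochondrion, and Plin2, a lipid droplet coat, did not pass (0.24, adjusted p = 0.101, and 0.081, adjusted p = 0.223). Cpt1a, the entry step of fatty acid oxidation, changed by -0.16 (adjusted p = 0.0103) and did not pass without day 6 replicate 1 (-0.13, adjusted p = 0.0518). Plin4, another droplet coat, changed by -1.69. Higher members were Fabp3, the fatty acid binding protein of muscle (0.99), Cd36, a fatty acid transporter (0.63), and Acadl, a dehydrogenase of oxidation (0.47). In the list of fatty acid oxidation and PPAR targets 13 of 35 tested members rose and 4 fell, with a median log2 fold change of 0.12, and with library totals alone the counts were 8 and 9. In the lists of fatty acid synthesis and of cholesterol synthesis, 6 higher and 8 lower of 19 and 6 higher and 4 lower of 24 tested members were called, and examples were Acacb, the mitochondrial acetyl-CoA carboxylase (1.04), Lpin1, a phosphatidate phosphatase (0.89), and Ebp, a sterol isomerase (0.51).

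Most tested genes of DNA replication and mitosis fell, and none rose. In the list of DNA replication 0 of 32 tested members rose and 27 fell, with a median log2 fold change of -0.44. Mcm3, a subunit of the replicative helicase, had 19.4, 22.2, 20.8 and 26.7 CPM at day 6, against 37.4, 38.7, 35.6 and 40.3 CPM at day 2 (log2 fold change -0.76, SE 0.086, adjusted p = 1.11e-08), and Uhrf1, which maintains DNA methylation in S phase, had 25.999, 21.8, 18.5 and 24.99 CPM at day 6, against 46.9, 41.1, 40.8 and 43.9 CPM at day 2 (log2 fold change -0.92, SE 0.092, adjusted p = 6.28e-10). Mcm5 and Mcm10 changed by -0.74 and -0.92. In the mitosis list 0 of 28 tested members rose and 20 fell, with a median log2 fold change of -0.36, including Top2a (-0.44), Cdk1 (-0.52), Ube2c (-0.68) and Birc5, the survivin gene (-0.61). Mki67, the common marker of cycling cells, did not pass (-0.27, adjusted p = 0.165). The inhibitors that hold cells out of the cycle split, since 9 higher and 6 lower of 19 tested members were called. Cdkn1a, the inhibitor p21, had 1302, 1354, 1339 and 1386 CPM at day 6, against 805, 904, 896 and 923 CPM at day 2 (log2 fold change 0.61, SE 0.067, adjusted p = 8.26e-09), Ccng1, a p53 target, rose by 0.96, and Cdkn1c, the inhibitor p57, had 14.3, 11.1, 9.57 and 9.005 CPM at day 6, against 50.7, 30.7, 35.3 and 38.3 CPM at day 2 (log2 fold change -1.85, SE 0.14, adjusted p = 9.09e-11).

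Matrix genes moved in both directions. In the collagen list 14 of 31 tested members rose and 7 fell, with a median log2 fold change of 0.16, and in the list of matrix glycoproteins and proteoglycans 18 of 38 tested members rose and 10 fell, with a median log2 fold change of 0.15. Postn, a matricellular protein, had 694, 869, 822 and 766 CPM at day 6, against 315, 173, 188 and 144 CPM at day 2 (log2 fold change 1.94, SE 0.24, adjusted p = 2.82e-06), and Fn1, fibronectin, had 14665, 15065, 14267 and 13455 CPM at day 6, against 8652, 6929.8, 6718 and 6206 CPM at day 2 (log2 fold change 1.01, SE 0.088, adjusted p = 3.70e-10). Col14a1, Col18a1 and Col1a1 changed by 2.04, 1.34 and 0.73. Lum, a small proteoglycan of collagen fibrils, rose by 2.305, and its relatives Omd and Ogn fell by 2.29 and 0.77. Fbln1, a fibulin, changed by -1.43. The fibroblast marker list holds Lum and Col1a1, given above, so it is not independent of the matrix genes. Of this list 7 of 12 tested members rose and 1 fell, with a median log2 fold change of 0.38. Dcn changed by 0.93, Ly6a by -0.72, and Pdgfra did not pass (-0.019, adjusted p = 0.88). The 13 fibroblast markers in the table took 0.301% to 0.314% of counts at day 6 and 0.246% to 0.276% at day 2. Their part in the matrix values was not tested.

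The insulin-like growth factors drive myogenic differentiation in an autocrine loop. In the list of this axis the 2 largest called changes were those of Igfbp2 and Igf2, and both were lower. Igf2 had 267, 251, 221 and 269 CPM at day 6, against 723, 614, 635 and 701 CPM at day 2 (log2 fold change -1.41, SE 0.088, adjusted p = 2.71e-12). Igfbp2, a binding protein of these factors, had 9.52, 7.19, 5.39 and 10.1 CPM at day 6, against 66.5, 64.5, 56.7 and 80.98 CPM at day 2 (log2 fold change -3.05, SE 0.15, adjusted p = 9.82e-14). Both fell without overlap. Igfbp3 changed by -1.10 and Igfbp5, the binding protein of differentiating myoblasts, by -0.20. H19, the noncoding RNA that neighbours Igf2 and shares its imprinting, changed by -0.49. In the whole list 5 of 24 tested members rose and 10 fell, with a median log2 fold change of -0.040. In the list of myostatin, follistatin and TGF-beta 9 of 31 tested members rose and 7 fell, with a median log2 fold change of 0.042. Examples from the higher members alone were Fst, the follistatin that binds myostatin (0.63), Inhba, an activin subunit (0.83), and Tgfbr3, a co-receptor (0.71). For both lists the shares over all genes were 22.4% higher and 19.8% lower.

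Wnt signals act in muscle through beta-catenin, which enters the nucleus and binds the TCF and LEF factors when its destruction complex is held back. Ligand and receptor genes were mixed, and 11 of 31 tested members rose and 7 fell, with a median log2 fold change of 0.093. Porcn, which lipidates every Wnt, changed by 0.62, Wnt9a by 0.68, Wnt11 by 2.08, and Lgr5, a receptor for R-spondins, by 1.80, while the receptors Fzd2 and Fzd9 changed by -0.46 and -1.06. Porcn, Wnt9a, Wnt11 and Fzd2 were picked after their values were seen. The rule at 5 CPM or more did not name Wnt11, though its change was larger than that of Lgr5. Of the secreted and membrane antagonists 1 of 9 tested members rose and 3 fell, with a median log2 fold change of -0.25. Sfrp1, which binds Wnt proteins, had 3.57, 2.22, 1.62 and 3.60 CPM at day 6, against 5.29, 6.22, 6.87 and 8.35 CPM at day 2 (log2 fold change -1.26, SE 0.30, adjusted p = 0.00167), and Kremen1, a Dickkopf receptor, changed by -0.42. In the beta-catenin core and destruction complex 5 of 30 tested members rose and 12 fell, with a median log2 fold change of -0.054. Ctnnb1, beta-catenin itself, had 623, 668, 713 and 678 CPM at day 6, against 779.6, 819, 839 and 789 CPM at day 2 (log2 fold change -0.27, SE 0.044, adjusted p = 7.63e-06). The nuclear partners were lower too: Lef1 fell by 0.56, Tcf7 by 0.50 and the co-repressor Tle3 by 0.54 on the log2 scale. Tcf7l2 changed by -0.39 (adjusted p = 0.0212) and did not pass without day 2 replicate 4 (-0.32, adjusted p = 0.0535), day 6 replicate 2 (-0.38, adjusted p = 0.0552) or day 6 replicate 4 (-0.39, adjusted p = 0.0526).

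Targets of beta-catenin showed no common direction. Of that list 7 of 20 tested members rose and 7 fell, with a median log2 fold change of 0.077. Axin2, the feedback target most often used as a readout, had 10.2, 12.2, 12.8 and 10.1 CPM at day 6, against 9.99, 9.47, 10.4 and 10.4 CPM at day 2 (log2 fold change 0.17, SE 0.10, adjusted p = 0.198) and did not pass, and Myc changed by -0.34 (adjusted p = 0.00155). Ccnd1, cyclin D1, changed by 0.24 (adjusted p = 0.0441). That call was lost without any 1 of 7 of the 8 libraries, where log2 fold changes stayed between 0.19 and 0.26. Tnfrsf19, a receptor of the TNF family, rose by 1.91, and Cd44, a hyaluronan receptor, changed by -0.76.

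Amino acid synthesis and stress genes were lower. In the ATF4 list, which holds targets of the integrated stress response and the serine pathway, 2 of 26 tested members rose and 16 fell, with a median log2 fold change of -0.55. Psat1 and Phgdh, enzymes of serine synthesis, had log2 fold changes of -0.90 and -0.90, Asns, asparagine synthetase, of -0.92, Slc7a5, a transporter of large amino acids, of -0.92, Mthfd2, of mitochondrial folate metabolism, of -0.97, and Stc2 of -1.21. Psat1 had 142, 144, 152 and 171 CPM at day 6, against 299, 286, 274 and 282 CPM at day 2, with no overlap between the days. In the NRF2 and glutathione list 2 of 27 tested members rose and 12 fell, with a median log2 fold change of -0.19. The metallothioneins, which bind zinc and copper, led it: Mt2 had 10.2, 8.89, 8.90 and 9.005 CPM at day 6, against 73.97, 62.4, 61.5 and 62.1 CPM at day 2 (log2 fold change -2.82, SE 0.36, adjusted p = 3.15e-06), and Mt1 changed by -1.89. Gpx3, a secreted glutathione peroxidase, changed by -0.90.

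The ribosomal protein genes, which have near-identical copies in the genome so that their counts are uncertain, were called in one direction: 0 of 76 tested members rose and 23 fell, with a median log2 fold change of -0.28. The 23 lower genes compare with 19.8% lower calls over all genes, the other 53 did not pass, and with library totals alone 36 fell. Their 77 genes took 1.76% to 1.84% of counts at day 6 and 2.1% to 2.48% at day 2. Rpl10a changed by -0.48 (adjusted p = 0.0219), and its call was lost without day 2 replicate 4 (-0.39, adjusted p = 0.0659), day 6 replicate 2 (-0.46, adjusted p = 0.0529) or day 6 replicate 4 (-0.47, adjusted p = 0.0514). Of proteasome subunits 7 of 32 tested members rose and 2 fell, with a median log2 fold change of 0.033, and with library totals alone 3 rose and 3 fell, so no direction is given for this list. Psmb2 changed by -0.38, and Psmb10, an immunoproteasome subunit, by -0.42, a call that was lost without day 6 replicate 2 (-0.32, adjusted p = 0.0666). Of atrophy and autophagy genes 12 of 24 tested members rose and 2 fell, with a median log2 fold change of 0.16, with Eda2r, a death receptor of the TNF family, at 1.06 and Fbxo40, a muscle ubiquitin ligase, at 1.06.

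Heat shock proteins and immediate early genes were called both ways, while hypoxia and interferon genes were called higher more often than lower. Over all genes 22.4% were called higher and 19.8% lower. Among heat shock proteins and chaperones 8 of 28 tested members rose and 6 fell, with a median log2 fold change of 0.028, led by the small muscle proteins Hspb7 (2.72) and Hspb3 (1.08). Among hypoxia genes 12 of 23 tested members rose and 1 fell, with a median log2 fold change of 0.18, with Car9, a carbonic anhydrase, at 1.73 and P4ha2, a collagen hydroxylase, at 0.58. Among interferon and antigen presentation genes 9 of 29 tested members rose and 2 fell, with a median log2 fold change of 0.23, with Parp14 at 0.88 and Ddx58, the RNA sensor RIG-I, at 0.43. Of immediate early genes 8 of 25 tested members rose and 7 fell, with a median log2 fold change of 0.10, with Nr4a3 at 0.99 and Klf2 at -1.44. Of the bone and cartilage markers 1 higher and 2 lower of 6 tested members were called, with Sox9 at -0.52. Of the smooth muscle markers 2 higher and 4 lower of 8 tested members were called, with Acta2 at -0.59, Synpo2 at 0.84 and Mylk at 0.71.

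The change over the ANGPTL4 course was then set against that over the vehicle course, which shares no library with it. The vehicle course had 5930 calls (45.6%), and 3755 genes were called the same way in both, which is 68.5% of the ANGPTL4 calls and 63.3% of the vehicle calls. A further 27 genes were called in opposite directions. Across 12994 genes the fold changes of the courses had a Pearson r of 0.823, where genes are not independent replicates. The difference between the courses, tested as an interaction, was called for 36 genes (0.277%), 11 higher (0.0847%) and 25 lower (0.192%) over the ANGPTL4 course, with 2415 at an unadjusted p under 0.05. The share of these calls that were higher was 30.56%, against 60.71% with DESeq2's size factors and 17.39% with library totals alone. Panel genes of myogenesis, contraction, lipid metabolism and Wnt signalling were not among them. The difference was 0.44 (SE 0.18, adjusted p = 0.19) for Myh2, 0.33 (SE 0.10, adjusted p = 0.0988) for Mef2c, -0.31 (SE 0.076, adjusted p = 0.0553) for Myod1, -0.34 (SE 0.39, adjusted p = 0.683) for Lpl and -0.20 (SE 0.11, adjusted p = 0.305) for Angptl4. Some of these passed under other settings: Myod1 with library totals alone (-0.35, adjusted p = 0.0333), with DESeq2 (-0.30, adjusted p = 0.0225), without ANGPTL4 day 2 replicate 1 (-0.29, adjusted p = 0.043) and without vehicle day 6 replicate 3 (-0.32, adjusted p = 0.0456). Mef2c passed with DESeq2 (0.34, adjusted p = 0.0454) and Myh2 in a fit of only the groups compared (0.45, adjusted p = 0.0389).

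**Figure D3:**
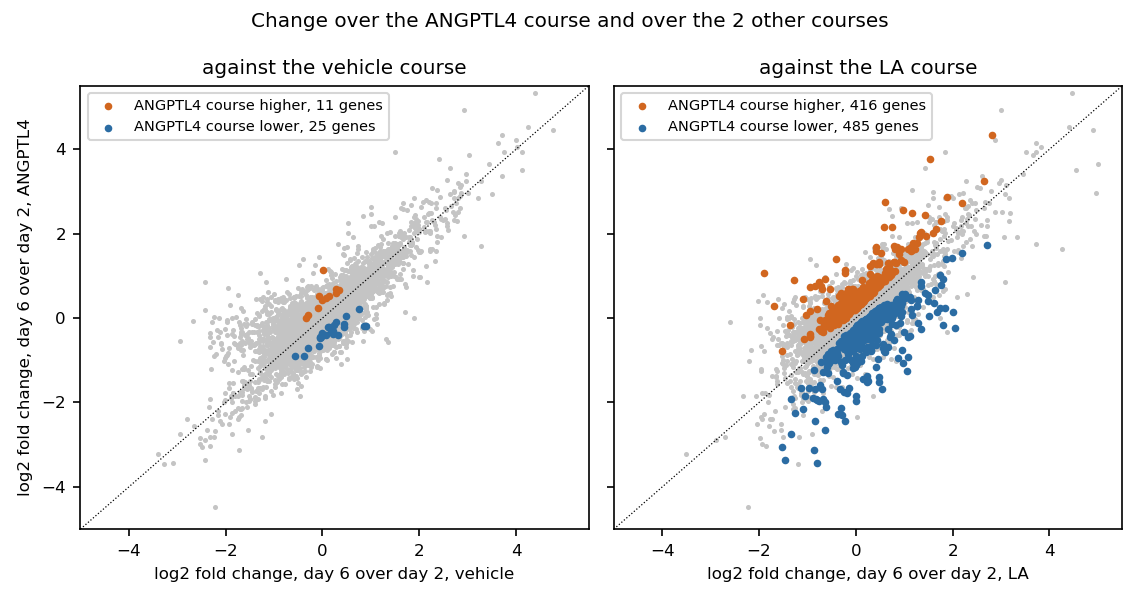
Log2 fold change of day 6 over day 2 for 12994 genes under ANGPTL4 (vertical) against vehicle (left) and LA (right); coloured points are genes whose difference between courses passed the test. 36 points are coloured on the left and 901 on the right, and the dotted line marks equal change. At an unadjusted p under 0.05 the counts were 2415 and 2604.

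The 36 calls were fragile, and 1 higher and 2 lower genes among them differed at least 2-fold. B3galt2, a galactosyltransferase, averaged 7.997 ± 0.654 CPM at day 6 and 3.66 ± 1.06 CPM at day 2 under ANGPTL4, against 7.58 ± 1.18 CPM at day 6 and 7.56 ± 0.979 CPM at day 2 under vehicle (SD, n = 4 each), a difference in log2 fold change of 1.14 (SE 0.26, adjusted p = 0.0459). Naalad2, a peptidase, Fmn1, a formin, Adgrl3, a latrophilin receptor, Tmf1, a Golgi protein, and Rassf8 were higher over the ANGPTL4 course by 0.59, 0.44, 0.41, 0.39 and 0.39. Lower over the ANGPTL4 course was Doc2g, of the double C2 family, with 3.59 ± 0.367 CPM at day 6 and 4.22 ± 0.842 CPM at day 2 under ANGPTL4, against 5.02 ± 0.757 CPM at day 6 and 2.71 ± 0.704 CPM at day 2 under vehicle, and a difference of -1.10 (SE 0.25, adjusted p = 0.0459). Tmem176b differed by -1.05, Ccdc85b by -0.73, Tmem147 by -0.65, Bok, a BCL2 family member, by -0.60 and Tax1bp3 by -0.59. Among other genes described here, Phgdh (-0.51), Cyc1 (-0.48), Ckb (-0.41), Fzd2 (-0.42) and Srf (-0.36) also differed, as did Hspa1b (-0.55), an inducible HSP70 gene with a near-identical copy, whose own change over the ANGPTL4 course was 0.20 (adjusted p = 0.0463). That change lost its call without any 1 of 7 of the 8 ANGPTL4 libraries, all but day 2 replicate 4, at adjusted p = 0.0566 to 0.133, and did not pass with counts thinned to the smallest total (0.052, adjusted p = 0.776). The count of 36 became 0 without ANGPTL4 day 2 replicate 3, day 6 replicate 1 or day 6 replicate 4, or without vehicle day 2 replicate 4, day 6 replicate 1 or day 6 replicate 2, and 305 without ANGPTL4 day 2 replicate 1. It was 1 without ANGPTL4 day 2 replicate 2 or day 6 replicate 2, 2 without ANGPTL4 day 2 replicate 4, 12 and 20 without vehicle day 2 replicate 2 and vehicle day 6 replicate 4, and 108, 98 and 130 without vehicle day 2 replicates 1 and 3 and vehicle day 6 replicate 3. The 25 lower genes had a median GC content of 59.7% and a median length of 2650 nucleotides in their longest annotated transcript, the 11 higher genes 44.9% and 6793, and all genes 49.7% and 3413. No gene was called once each library's trend with GC content and length was removed, as with 6 of the single libraries left out, yet the 12 differences given first kept their direction. Doc2g was then -0.96, Tmem176b -0.93, Naalad2 0.52 and B3galt2 0.91, while Fmn1 was 0.23 and Bok -0.35.

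Lists that looked different between the courses by their own counts were not called gene by gene. Of respiratory chain subunits, 6 rose and 8 fell over the ANGPTL4 course and 21 rose and 0 fell over the vehicle course, and the difference passed for 1 of 56, Cyc1; with library totals alone the ANGPTL4 counts were 4 and 14. Of ribosomal protein genes, 0 rose and 23 fell over the ANGPTL4 course and 0 rose and 4 fell over the vehicle course, with a median difference of -0.29 and 0 of 76 called. Fewer called members in one course than in the other is not shown to be a difference.

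Against the LA course, which shares no library with the ANGPTL4 course either, 901 genes differed (6.93%), 416 higher (3.2%) and 485 lower (3.73%) over the ANGPTL4 course. The share of these calls that were higher was 46.17%, against 31.85% with library totals alone. At an unadjusted p under 0.05 there were 2604 genes, beside 2415 in the test against vehicle. The counts of 901 and 36 calls therefore do not measure how much more widely the LA course differed. The LA course had 5697 calls (43.8%), of which 3601 were shared in direction, 65.7% of the ANGPTL4 calls and 63.2% of the LA calls, and 89 genes were called in opposite directions. In the list of fatty acid oxidation and PPAR targets the difference passed for 0 higher and 10 lower of 35, in that of cholesterol synthesis for 6 higher and 0 lower of 24 and in that of fatty acid synthesis for 2 higher and 0 lower of 19. Between the ANGPTL4 and vehicle courses it passed for 0 members of these lists, where 0.277% of all genes passed. At that share a count of 0 does not set these lists apart. Angptl4 averaged 19.05 ± 2.06 CPM at day 6 and 21.6 ± 0.590 CPM at day 2 under ANGPTL4 protein, against 285 ± 22.8 CPM at day 6 and 81.7 ± 1.32 CPM at day 2 under LA (SD, n = 4 each), a difference in log2 fold change of -1.97 (SE 0.094, adjusted p = 3.30e-16). Pdk4 differed by -1.50, Plin2 by -0.63, Cpt1a by -0.98 and Plin4 by -2.24. Lpl averaged 5.46 ± 1.25 CPM at day 6 and 59.3 ± 5.66 CPM at day 2 under ANGPTL4, against 37.8 ± 9.50 CPM at day 6 and 64.7 ± 8.96 CPM at day 2 under LA, a difference of -2.63 (SE 0.32, adjusted p = 4.30e-05).

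**Figure D4:**
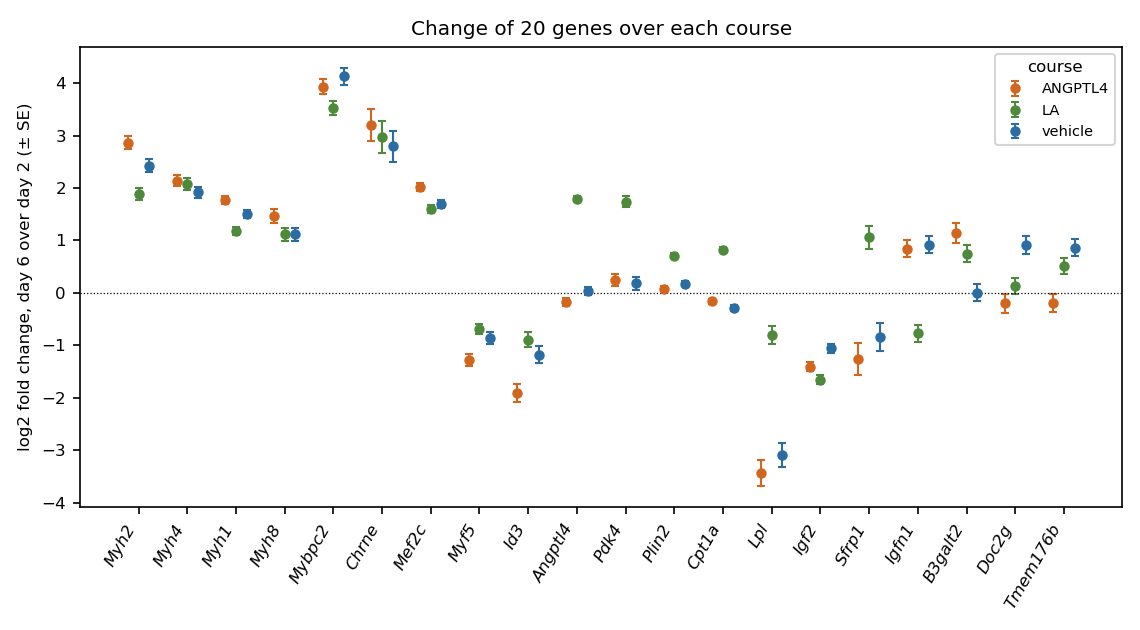
Log2 fold change of day 6 over day 2 with its SE for 20 genes over the ANGPTL4, LA and vehicle courses (4 libraries a day each). The PPAR target genes Angptl4, Pdk4, Plin2 and Cpt1a lie between 0.71 and 1.80 under LA and between -0.17 and 0.24 under ANGPTL4.

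Contractile genes were also higher over the ANGPTL4 course than over the LA course. The difference passed for 4 higher and 0 lower of 9 myosin heavy chains, 6 higher and 0 lower of 9 light chains and actins, 8 higher and 0 lower of 16 troponins and tropomyosins, 11 higher and 0 lower of 16 giant filament genes and 15 higher and 0 lower of 27 Z-disc genes. Over all genes 3.2% were higher and 3.73% lower. Without ANGPTL4 day 6 replicate 1 the count of myosin heavy chains was 2. Myh2 differed by 0.98 (SE 0.17, adjusted p = 0.000912), Myh1 by 0.60 (SE 0.11, adjusted p = 0.000664) and Tnni1 by 0.45 (SE 0.091, adjusted p = 0.00141), whereas Myh4 changed by 2.14 under ANGPTL4 and 2.08 under LA, and their difference did not pass (adjusted p = 0.875). Igfn1, a muscle immunoglobulin and fibronectin domain protein, averaged 40.04 ± 7.45 CPM at day 6 and 22.1 ± 2.54 CPM at day 2 under ANGPTL4, against 16.6 ± 1.06 CPM at day 6 and 28.8 ± 4.71 CPM at day 2 under LA, a difference of 1.61 (SE 0.23, adjusted p = 0.000129). Aldh3b3, an aldehyde dehydrogenase, and Hectd2os, an antisense transcript whose reads could not be separated from its partner's here, differed by 1.57 and 1.58. Ryr1 differed by 0.51, Chrng by 0.56 and Cdkn1a by 0.52, all higher over the ANGPTL4 course. The median log2 fold changes of the contractile lists, in the order above, were 0.517, 0.688, 0.501, 0.534 and 0.65 under ANGPTL4. Over the vehicle course they were 0.551, 0.74, 0.58, 0.378 and 0.599, and over the LA course 0.178, 0.224, 0.222, -0.0114 and 0.298. Between the ANGPTL4 and vehicle courses the difference passed for 0 members of these lists, where 0.277% of all genes passed. A count of 0 is thus not particular to the contractile lists.

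Among matrix and Wnt antagonist genes, most calls were lower over the ANGPTL4 course than over the LA course, and most collagens and matrix glycoproteins did not pass. The difference passed for 1 higher and 10 lower of 31 collagens, 0 higher and 13 lower of 38 matrix glycoproteins and 0 higher and 5 lower of 9 Wnt antagonists, the last with a median difference of -0.98. Over all genes 3.2% were higher and 3.73% lower. Between the ANGPTL4 and vehicle courses the difference passed for 0 members of these lists, where 0.277% of all genes passed, so that 0 is not particular to them. For markers of other cell types the difference from the LA course passed for 0 higher and 4 lower of 12 fibroblast markers. It passed for 0 higher and 2 lower of 5 adipocyte and 0 higher and 2 lower of 6 bone and cartilage markers. For smooth muscle markers it passed for 1 higher and 0 lower of 8, and for 0 of 3 endothelial and 0 of 3 macrophage markers. The fibroblast, adipocyte and bone and cartilage lists are not independent of the others. Lum is a matrix and a fibroblast member, Omd a matrix and a bone member, and Lpl a fatty acid oxidation and an adipocyte member. The fibroblast list took 0.301% to 0.314% of counts at day 6 and 0.246% to 0.276% at day 2 under ANGPTL4, against 0.353% to 0.382% at day 6 and 0.253% to 0.278% at day 2 under LA, and its part in the result was not tested. Sfrp1 averaged 2.75 ± 0.993 CPM at day 6 and 6.68 ± 1.29 CPM at day 2 under ANGPTL4, against 12.02 ± 2.63 CPM at day 6 and 5.52 ± 1.58 CPM at day 2 under LA, a difference of -2.32 (SE 0.37, adjusted p = 0.000286). Fbln1 differed by -1.66, Omd by -2.003 and Igfbp2 by -1.53. Ces1a, a carboxylesterase with near-identical copies whose counts are uncertain, differed by -2.29. Among genes of DNA replication, Mcm3 and Uhrf1 differed by -0.61 and -0.47, in a list where the difference passed for 0 higher and 5 lower of 32. In the mitosis list it passed for 0 higher and 0 lower of 28.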

How the data were processed

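Per the labels' protocols, RNA had an integrity number above 7 and libraries came from the QuantSeq 3′ kit. The submitters' processing notes name STAR 2.7.1a, HTSeq 0.9.1, Trimmomatic, DESeq and DESeq2 beside build mm39, without roles or settings. The authors deposited raw counts by symbol for 14693 genes, with a lowest gene total of 51 over 24 libraries. Whether strand was used in counting is not given in the sources used here, so antisense pairs and near-identical copies are uncertain. No genome of that build was used. Promoters came from RefSeq GRCm38.p6 by symbol, and transcript length and GC content from GENCODE vM21 for 97.9% of genes.

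filterByExpr left 12994 genes. TMM factors and edgeR 4.0.16 (robust quasi-likelihood, R 4.3.3) gave one fit of 6 group means with 18 residual degrees of freedom, and the SE is the log2 fold change over the square root of F. The courses were compared in the same fit. Alternatives used DESeq2 1.42.0 and limma 3.58.1. Members and lists were chosen with earlier results of these data known. Named were a panel of 41 genes (40 tested), the 2 largest called changes of each of 44 lists, the 10 highest and 10 lowest changes, and the 6 and 3 largest differences each way from the vehicle and LA courses, all at 5 CPM or more, 135 genes in all after 3 that are not reported here. The other 63 genes were picked after their values were seen.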

Additional observations from a re-analysis of the deposited data

Results flagged for a closer look

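Among 402 groups of 4 libraries examined (the levels of each named gene at day 6 and at day 2, the library totals and the principal components), 31 had 1 library whose gap to the nearest of the others exceeded 0.829 of the group's range; chance gives about 1 in 20. In 12 of the 31 that library was ANGPTL4 day 6 replicate 1. ANGPTL4 day 2 replicate 1 was highest for Mb (247 CPM, the others 203 to 207), Mki67 (271 CPM, the others 209 to 217), Mt2 (74.0 CPM, the others 61.5 to 62.4), P4ha2 (60.9 CPM, the others 50.5 to 51.0), Stc2 (9.26 CPM, the others 8.93 to 8.94), Tnni2 (350.1 CPM, the others 267 to 272) and Tnnt2 (1298 CPM, the others 1025 to 1053). ANGPTL4 day 2 replicate 4 was lowest for Acadl (158 CPM, the others 172 to 173) and Myh7 (308 CPM, the others 371 to 382). ANGPTL4 day 6 replicate 1 was highest for Mt2 (10.2 CPM, the others 8.89 to 9.005), Mylk (51.0 CPM, the others 43.3 to 44.6), Rpl10a (109 CPM, the others 91.7 to 94.0), Tcf7l2 (23.96 CPM, the others 21.2 to 21.6) and Ttn (17282 CPM, the others 9786 to 10044). ANGPTL4 day 6 replicate 1 was lowest for Casq1 (95.7 CPM, the others 100.4 to 101), Ccng1 (559.9 CPM, the others 631 to 643), Eda2r (370.3 CPM, the others 410.3 to 414), Lgr5 (6.12 CPM, the others 7.15 to 7.20), Plin2 (82.2 CPM, the others 91.4 to 92.2) and Sgcd (150.2 CPM, the others 163 to 166). ANGPTL4 day 6 replicate 2 was highest for Chrna1 (973 CPM, the others 917 to 925), Chrnd (211 CPM, the others 192 to 194), Igfbp3 (68.6 CPM, the others 62.4 to 63.2), P4ha2 (88.2 CPM, the others 76.1 to 78.1) and Pygm (243 CPM, the others 228 to 230.1). ANGPTL4 day 6 replicate 3 was lowest for Acta2 (1662 CPM, the others 1867 to 1889) and Ampd1 (11.1 CPM, the others 13.5 to 13.8). ANGPTL4 day 6 replicate 4 was highest for Cxcl5 (3.15 CPM, the others 1.35 to 1.57). ANGPTL4 day 6 replicate 4 was lowest for Naalad2 (16.1 CPM, the others 18.0 to 18.3). Day 6 replicate 1 lay at -31.21 on the second principal component of the 8 libraries, the others at 8.188 to 9.932, and day 2 replicate 4 at -33.25 on the first, the others at -26.25 to -25.45.

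The day 6 minus day 2 change under ANGPTL4 differed from that under vehicle, in the test of the difference itself, for 18 of the genes named. In log2 fold change the difference was positive for Adgrl3 (0.41), B3galt2 (1.14), Fmn1 (0.44), Naalad2 (0.59), Rassf8 (0.39) and Tmf1 (0.39). It was negative for Bok (-0.60), Ccdc85b (-0.73), Ckb (-0.41), Cyc1 (-0.48), Doc2g (-1.10), Fzd2 (-0.42), Hspa1b (-0.55), Phgdh (-0.51), Srf (-0.36), Tax1bp3 (-0.59), Tmem147 (-0.65) and Tmem176b (-1.05).

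The same test against the LA course passed for 75 of the genes named. The difference was positive for Acta1 (0.29), Actc1 (0.41), Aldh3b3 (1.57), Atp2a1 (0.52), Atp2a2 (0.37), Cacna1s (0.42), Cav3 (0.46), Ccng1 (0.28), Cdkn1a (0.52), Chrna1 (0.27), Chrnb1 (0.33), Chrnd (0.41), Chrng (0.56), Cox6a2 (0.75), Des (0.26), Ebp (0.52), Fst (0.31), Hectd2os (1.58), Hspb7 (0.53), Igfn1 (1.61), Lmod2 (0.51), Lpin1 (0.40), Mb (0.47), Mef2c (0.42), Mss51 (0.70), Myh1 (0.60), Myh2 (0.98), Myh3 (0.32), Myh7 (0.39), Myl1 (0.39), Myl2 (1.53), Mylk2 (0.45), Mylpf (0.46), Mymk (0.38), Mymx (0.38), Myom2 (0.50), Neb (0.74), Pfkm (0.45), Porcn (0.46), Pygm (0.41), Ryr1 (0.51), Synpo2 (0.41), Tcap (0.71), Tmem182 (0.33), Tnfrsf19 (0.60), Tnni1 (0.45), Tnnt1 (0.55), Tnnt2 (0.47), Tnnt3 (0.46) and Wnt9a (0.40). It was negative for Angptl4 (-1.97), Asns (-0.31), Cd44 (-0.28), Ces1a (-2.29), Cpt1a (-0.98), Cxcl5 (-2.19), Dcn (-0.86), Fbln1 (-1.66), Gpx3 (-0.90), Id1 (-0.45), Id3 (-1.01), Idh2 (-0.27), Igfbp2 (-1.53), Igfbp3 (-0.81), Lpl (-2.63), Mcm3 (-0.61), Myf5 (-0.59), Omd (-2.003), Pdgfra (-0.59), Pdk4 (-1.50), Plin2 (-0.63), Plin4 (-2.24), Sfrp1 (-2.32), Tmc3 (-1.42) and Uhrf1 (-0.47).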

How the results depend on the processing

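The count of genes called between ANGPTL4 day 6 and day 2 stayed within 1.5 times of 5480 under all 11 other settings, at 4699 to 5787, and with each of the 8 libraries left out in turn, at 4911 to 5251. The difference in library totals, -8.988 M counts, was -10.14 to -7.677 M with 1 library left out. The count against the LA course was 656 to 1048 under the 11 settings and 606 to 1109 with 1 library left out. The count of 36 against the vehicle course was 56 with DESeq2's size factors, 161 with library totals alone, 64 with genes at 5 CPM in at least 4 libraries, 381 with DESeq2, 19 with limma-voom, 69 without ANGPTL4 day 6 replicate 1 and LA day 2 replicate 3, 0 with a replicate block and 0 with the GC and length trend removed, and 0 to 305 with 1 library left out. The settings without those 2 libraries and with the trend removed were chosen after seeing the data. The cause of these shifts was not tested. Same-numbered ANGPTL4 libraries of days 6 and 2 deviated from their group means with correlations of -0.16 to 0.0993. Those with other numbers gave -0.226 to 0.355. These values do not settle whether replicate numbers pair the libraries. With the replicate block, 5402 genes were called between the days. Of 181 called changes among the 198 named genes, 175 kept their call under the 11 settings, and the others were Ccdc85b, Ccnd1, Cpt1a, Hspa1b, Myh7 and Ttn; 173 kept it with each library left out. Changes that did not pass were called in some of the settings for Angptl4, Chrnb1, Mki67, Myh3, Mymk, Pdk4 and Tmem147, and with 1 library left out for Angptl4, Chrnb1, Myh3 and Tmem147; differences from the vehicle course were called in some settings for Mef2c, Myh2 and Myod1, and with 1 library left out for Myod1. Of the 12 rule-named differences from the vehicle course, 0 kept their call under all settings, and of the 6 from the LA course 6 did.

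Values that did not pass changed sign as follows. For the change under ANGPTL4, Chrna1 was -0.0050 with library totals alone, Pdgfra 0.0037 with counts thinned to the smallest total and -0.062 to 0.024 with 1 library left out, and Mymx 0.0069 with the GC and length trend removed and -0.080 to 0.026 with 1 library left out. For the difference from the vehicle course, Ryr1 was -0.017 with library totals alone, -0.0011 without the 2 libraries, -0.070 with the trend removed and -0.019 to 0.071 with 1 left out; Axin2 was -0.0016 with totals alone and -0.022 to 0.11 with 1 left out; Myf6 was 0.12 when thinned and -0.26 to 0.024 with 1 left out; Pdk4 was -0.073 when thinned and -0.069 to 0.13 with 1 left out; Acta1 was 0.022 and Col1a1 0.0019 with the trend removed; Col1a1 was -0.18 to 0.037 and Myh3 -0.0031 to 0.12 with 1 left out. Depth limits genes of low level, since day 6 libraries held fewer counts than those of day 2 under ANGPTL4.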

Other observations

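The largest decreases over the ANGPTL4 course held genes outside the muscle lists. Tmc3, of a family of membrane channel genes, had 1.70, 1.05, 2.16 and 1.35 CPM at day 6, against 8.88, 11.8, 8.51 and 13.2 CPM at day 2 (log2 fold change -2.75, SE 0.22, adjusted p = 9.99e-12). Sema6b, a semaphorin guidance molecule, changed by -2.67, Zfp521, a zinc finger factor, by -2.27, and Dync1i1, an intermediate chain of the dynein motor, had 5.10, 3.66, 4.99 and 5.40 CPM at day 6, against 25.1, 27.2, 24.1 and 24.9 CPM at day 2 (log2 fold change -2.40, SE 0.10, adjusted p = 1.62e-18). Blnk, an adaptor of B cell receptor signalling, changed by -2.57 and Cxcl5, a chemokine, by -2.43. Cxcl5 averaged 1.86 ± 0.869 CPM at day 6 and 10.6 ± 2.17 CPM at day 2 (SD, n = 4 each), and day 6 replicate 4 held 3.15 CPM where the other day 6 libraries held 1.35 to 1.57 CPM. Over the vehicle course the same genes changed by -2.94, -2.21, -2.02, -2.28, -2.65 and -1.20, in the order Tmc3, Sema6b, Zfp521, Dync1i1, Blnk and Cxcl5, and no difference between the courses passed for them.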
